A study of Homo sapiens with 12 samples.

Results

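The oeALKBH5-only m6A regions are stretches of the genome where at least 2 of the 3 lists of m6A peaks from ALKBH5-overexpressing cells held a peak and none of the 3 lists from empty-vector cells did. Same-strand peaks of the 6 lists that overlapped by 1 base or more were joined into 25666 regions, of which 1486 met this rule. The members were thus chosen by the presence and absence of peaks in both groups, and that difference is given as a description, with no test. The cells were C4-2, a human prostate cancer line that grows without androgen. Control cells (NC) had an empty vector, and the other group (oeALKBH5) overexpressed ALKBH5, with no further treatment in the labels. With 3 replicates per group, every replicate had an IP library, made from RNA bound by an m6A antibody and reported as 1 peak list, and an input library made without that step. The labels do not say whether replicates were separate cultures, nor whether the overexpressing cells were 1 clone, so the spread behind each p-value may be technical only.

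N6-methyladenosine (m6A) is a mark that a methyltransferase complex sets on adenosines of messenger RNA, often near stop codons and in long exons, and that reader proteins bind to change the splicing, translation or decay of the transcript. ALKBH5 is a demethylase that removes the mark in the nucleus. In m6A immunoprecipitation sequencing, a peak is a stretch where antibody-bound RNA is enriched, so a peak depends on the mark, on how much of the transcript is present and on how deeply the library was read.

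ALKBH5 mRNA stood at 64.9, 61.1 and 58.2 FPKM (fragments scaled to gene length and library size) in the input libraries of NC replicates 1, 2 and 3. In oeALKBH5 replicates 1, 2 and 3 it stood at 80.3, 74.3 and 72.5 FPKM. The groups did not overlap, and the difference of 0.30 on the log2(FPKM + 1) scale had p = 0.1 in a two-sided exact permutation test, which with 3 libraries in each group cannot go lower.

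The peak lists differed in length. Those of NC replicates 1, 2 and 3 held 11902, 11559 and 11619 peaks, and those of oeALKBH5 replicates 1, 2 and 3 held 16060, 11478 and 15052. Thus oeALKBH5 replicate 2 had the shortest list of all and the other two oeALKBH5 replicates the longest, and the groups overlapped (two-sided exact permutation p = 0.4). The depth of the IP libraries is unknown.

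The 1486 members were 5.79% of all regions, a share that the rule itself sets. The mirror rule, a peak in at least 2 NC lists and in no oeALKBH5 list, gave 589 NC-only regions, 2.29% of all. Of 11984 regions with a peak in at least 2 oeALKBH5 lists, the members were 12.4%, and of 10826 regions with a peak in at least 2 NC lists, the NC-only regions were 5.44%. The order of the counts turned over when list length was evened out, but not when a common lowest score was set. With each list cut to its 11478 highest-scored peaks, the length of the shortest, 800 regions were oeALKBH5-only and 882 were NC-only. With scores of at least 100 in every list, 877 were oeALKBH5-only and 431 were NC-only.

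The largest group of members, 688 or 46.3%, was held by both long lists, oeALKBH5 replicates 1 and 3, and not by replicate 2. Replicates 1 and 2 alone held 288, replicates 2 and 3 alone 259, and all 3 lists 251 (16.9% of the members, 0.978% of all regions). The NC-only regions were spread more evenly, with 157, 169 and 140 in the 3 pairs of lists and 123 in all 3. Left without oeALKBH5 replicate 1 or 3, with both other oeALKBH5 lists then required, the rule gave 509 and 541 members, and without replicate 2 it gave 935. Without NC replicate 1, 2 or 3 it gave 2043, 1979 and 1973.

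**Figure D1:**
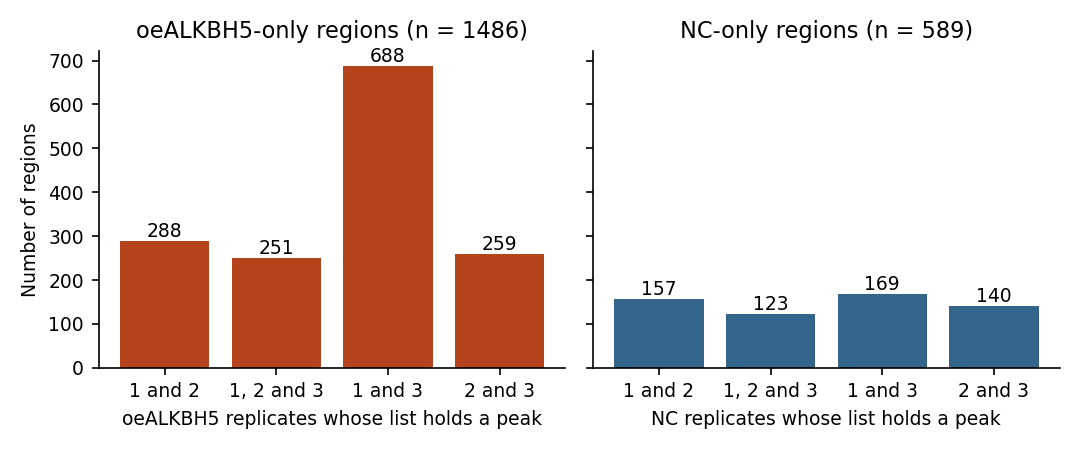
Number of oeALKBH5-only (left) and NC-only (right) regions by which replicates' lists hold a peak. The pair of oeALKBH5 replicates 1 and 3, the 2 longest lists, holds 688 of the 1486 members, while the 4 NC bars lie between 123 and 169.

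Regions were also chosen on 4 lists and looked up in the remaining 2, which that choice did not use. The rule for the members uses all 6 lists. These shares thus recount the same presence of peaks and are not separate evidence for the members. Regions with a peak in 2 oeALKBH5 lists and in neither of 2 NC lists were searched in the third oeALKBH5 list and in the third NC list, for each of the 9 ways to hold out 1 list per group. These ways reuse the same 6 lists and are not independent of each other. In 9 of 9 ways the held-out oeALKBH5 list held a larger share of the chosen regions than the held-out NC list. The number found in the held-out oeALKBH5 list was 400, 386 or 403 with NC replicate 1, 2 or 3 held out. It was the same whichever oeALKBH5 list was held out, so that only the number of chosen regions changed that share. With oeALKBH5 replicate 1 held out, 730 to 744 regions were chosen, and 52.9 to 54.4% had a peak in it, against 30.1 to 31.5% in the held-out NC list. With oeALKBH5 replicate 3 held out, the shares were 49.2 to 51.7% against 30.3 to 33.7%. With the short list of oeALKBH5 replicate 2 held out, they were 30.9 to 32.1% against 24.8 to 27.4%. The mean difference over the 9 ways was 15.7 percentage points, and the difference was smallest, 3.56 to 6.76 points, with oeALKBH5 replicate 2 held out. The regions were then chosen on oeALKBH5 replicates 1 and 3, which gave 1248 to 1293 of them, against 773 to 813 with replicate 3 held out. The part of list length in this difference was not tested.

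With all lists cut to equal length, the held-out oeALKBH5 list held 40.5 to 44.6% of the chosen regions and the held-out NC list 32.7 to 37.5%. The mean difference was then 8.33 percentage points, with the oeALKBH5 list ahead in 9 of 9 ways, which again share their lists. The mirror choice gave the same order. Regions chosen as NC-only were found in 49.2 to 56.5% of cases in the held-out NC list and in 33.6 to 45.1% in the held-out oeALKBH5 list at equal length, also in 9 of 9 ways. In the lists as deposited, the held-out NC list was ahead in 6 of 9 ways and behind wherever oeALKBH5 replicate 1 was held out.

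**Figure D2:**
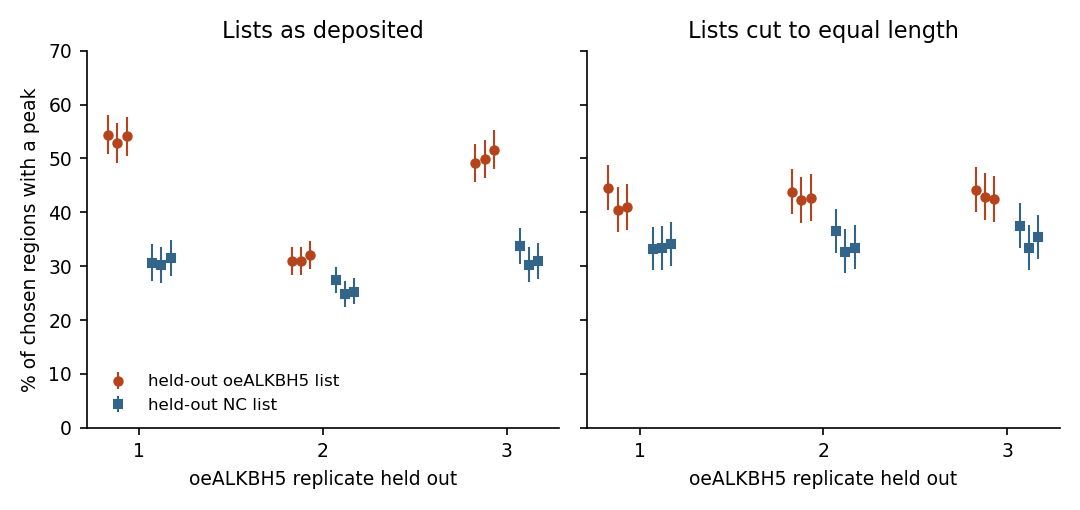
Share of regions chosen as oeALKBH5-only on 2 lists per group that had a peak in the held-out oeALKBH5 list (circles) or the held-out NC list (squares), with exact binomial 95% intervals for counting error only. The circles lie above the squares for each held-out replicate, by 3.56 to 23.8 points in the lists as deposited (left) and by 6.73 to 11.4 points in lists of equal length (right).

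Most members had low scores. The authors' score, which is 50 at its lowest in every list, had a median of 99.2, 81.2 and 92.8 over member peaks in oeALKBH5 replicates 1, 2 and 3, against 182, 184 and 146 over all peaks of the same lists. Expressed as a percentile within the list, the member peaks had medians of 30.2, 21.6 and 32.3, where all peaks of a list have 50 by construction. Averaged over the lists that held it, a member's percentile had a median of 28.6 (lower and upper quartile 19.2 and 40.2) and ran from 1.12 to 97.7. Below the 20th percentile lay 408 members, and above the 80th lay 31. The NC-only regions also scored low, with median percentiles of 22.2, 22.8 and 23.4 in NC replicates 1, 2 and 3.

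Among regions with a peak in at least 2 oeALKBH5 lists, the share with no NC peak fell with the percentile. It was 47.8% of 853 regions up to the 20th percentile, 25.2% of 2772 between the 20th and 40th, 9.30% of 3205 up to the 60th, 1.89% of 2643 up to the 80th and 1.23% of 2511 above it. The mirror shares of NC-only regions fell from 21.1% to 0.367% over the same classes. Among members with a peak in all 3 lists, the percentiles of a region in 2 lists were weakly related, with Spearman's rho of 0.27 for replicates 1 and 2, 0.23 for 1 and 3 and 0.30 for 2 and 3 across 251 regions, which are not independent replicates.

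**Figure D3:**
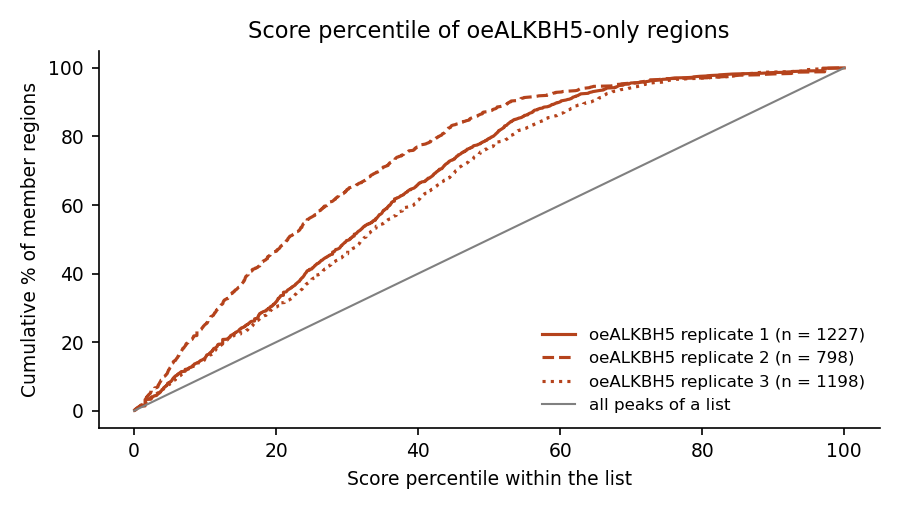
Cumulative share of oeALKBH5-only regions by the score percentile of their highest peak within each oeALKBH5 list, with all peaks of a list as the grey diagonal. The 3 curves rise early, with medians of member peaks at 30.2, 21.6 and 32.3 for replicates 1, 2 and 3.

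Member peaks were narrower in the median than all peaks of the same lists. Their median widths were 251, 284 and 250 bases in oeALKBH5 replicates 1, 2 and 3, against 287, 369 and 272 over all peaks. Member regions had a median width of 270 bases, with quartiles of 144 and 633 bases, a minimum of 15 and a maximum of 7661. Of the member regions, 187 (12.6%) were wider than 1 kb. Members with a peak in all 3 lists were wider than those in 2, with medians of 437 and 252 bases, and had median percentiles of 34.3 and 27.4. NC-only regions had a median of 215 bases, and the 5809 regions with a peak in all 6 lists had 561 bases, with 34.5% wider than 1 kb. Just outside the rule, the 7670 regions with a peak in 1 oeALKBH5 list and no NC list had a median width of 176 bases and percentile of 20.5. The 1537 regions with 2 or 3 oeALKBH5 lists and 1 NC list had 321 bases and a percentile of 36.4. Joining more lists widens a region, so widths of regions held by different numbers of lists are not like for like.

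In 683 members (46.0%) every list that held the region gave exactly the same start and end. These had a median width of 171 bases, against 518 bases in the 803 members whose borders differed between lists, while their median percentiles were 28.6 and 28.4. The same was seen in 60.3% of NC-only regions and 57.3% of those in all 6 lists. The plus strand held 755 members and the minus strand 731. On the opposite strand, 6 members overlapped an NC peak, as did 4 NC-only regions with an oeALKBH5 peak.

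Members were found on every chromosome except Y, where none of 26 regions qualified. Chromosome 1, with the most regions, had 149 members, followed by chromosome 19 with 116 and chromosome 2 with 101. As a share of the regions of a chromosome, chromosome 22 stood highest, with 55 of 604 regions or 9.11% (exact binomial 95% interval 6.93 to 11.7%), and chromosome 13 lowest of those with members, with 16 of 516 or 3.10% (1.78 to 4.99%). Chromosome 20 had 7.86% (6.02 to 10.04%), chromosome X 7.21% and chromosome 4 4.20% (3.05 to 5.64%). On chromosome 22, 1.32% of regions were NC-only. The intervals cover counting error only and were not adjusted for the 24 chromosomes compared.

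Relative to the share over all regions, chromosome 22 stood at 1.57, and at 1.55 in lists of equal length. With 1 list left out it ran from 1.24 (without oeALKBH5 replicate 3) to 1.93 (without oeALKBH5 replicate 1). Chromosome 13 stood at 0.54, with 0.77 at equal length and 0.37 to 0.73 with 1 list left out. For chromosome 20 the ratio of 1.36 did not hold, with 0.99 at equal length and 0.82 without oeALKBH5 replicate 1. Chromosome 4 went from 0.73 to 0.39 at equal length.

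**Figure D4:**
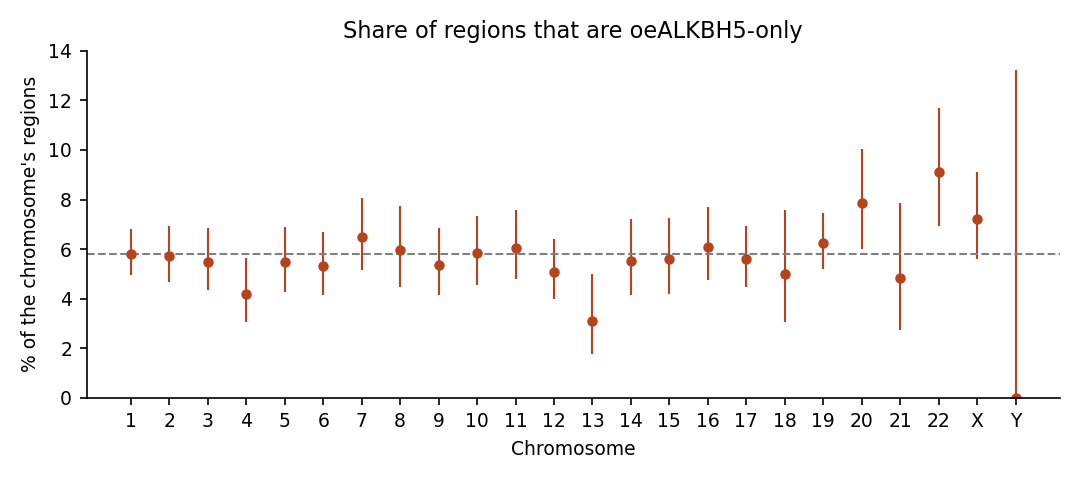
Share of the regions of each chromosome that were oeALKBH5-only, with exact binomial 95% intervals for counting error only and the share over all regions, 5.79%, as the dashed line. Chromosome 22 is highest at 9.11% and chromosome 13 lowest of those with members at 3.10%.

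Most members lay apart from one another. Of the 1486, 91 (6.12%) had another member within 10 kb on the same strand, and the median distance to the nearest was 589892 bases. The 2 stretches of up to 100 kb that held the most members, 4 each, were chr22:50988924-51063892, where they were 4 of 11 regions, and chr20:44420576-44509900, where they were 4 of 8, all on the plus strand. On chromosome 22 these 4 members had mean percentiles from 28.9 to 54.2 and included chr22:51001287-51001328, 42 bases on the minus strand, with scores of 286, 146 and 119 in oeALKBH5 replicates 1, 2 and 3. On chromosome 20 the percentiles ran from 11.7 to 45.7, and the widest of the 4, chr20:44469087-44471455 with 2369 bases, scored 53.3 and 71.5 in replicates 2 and 3. Neither stretch held an NC-only region. Another 26 stretches held 3 members. Of these, chr22:36661197-36700201 had the highest mean percentile, 57.0, and was led by chr22:36661197-36663577, a region of 2381 bases with a mean percentile of 87.3. Its scores were 1711, 986 and 940 in oeALKBH5 replicates 1, 2 and 3, and no NC peak lay within 605510 bases on that strand.

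The nearest NC peak on the same strand lay at a median of 16378 bases from a member, with quartiles of 3930 and 67918. It was within 1 kb for 114 members (7.67%), within 10 kb for 611 (41.1%) and beyond 100 kb for 298 (20.1%). For NC-only regions the nearest oeALKBH5 peak was closer, at a median of 8277 bases, with 55.3% within 10 kb and 11.0% beyond 100 kb. The oeALKBH5 lists to which these regions were compared were longer. In lists of equal length the medians were 16675 bases for oeALKBH5-only and 9958 bases for NC-only regions, with 19.5% and 16.3% beyond 100 kb. Members far from any NC peak were wider, with a median of 431 bases beyond 100 kb, 257 bases between 1 and 100 kb and 194 bases within 1 kb. Their percentiles were alike, at 27.3, 28.6 and 29.6, and 48 of the 298 far members had a peak in all 3 lists.

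**Figure D5:**
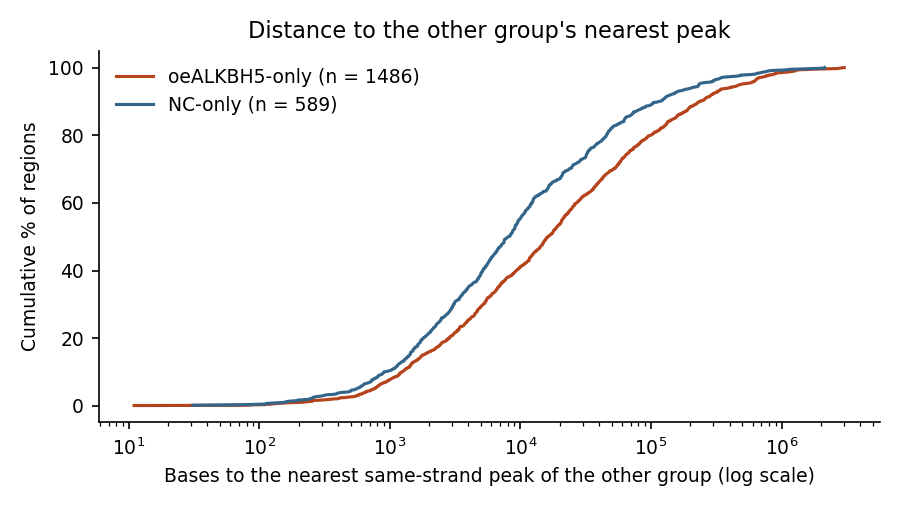
Cumulative share of regions by the distance in bases, on a log scale, to the nearest peak of the other group on the same strand. The curve of the 1486 oeALKBH5-only regions runs to the right of that of the 589 NC-only regions, with medians of 16378 and 8277 bases.

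Most of the highest-ranked members scored 3100, a score that 934, 596 and 551 peaks reached or passed in oeALKBH5 replicates 1, 2 and 3. A score of 3100 or more was found in at least 1 list for 15 members and in every list that held the region for 8. In hg19, the build that the submitters' processing notes name, the top of the ranking was shared by chr1:43148658-43149036 (379 bases, plus strand) and chr1:35653574-35653691 (118 bases, minus strand). Both scored 3100 in oeALKBH5 replicates 2 and 3, with the same borders in each, and were not in the list of replicate 1. Next came chr12:58111929-58112204 (276 bases, plus strand), with 3100 in replicates 1 and 3 and the nearest NC peak 40141 bases away. Another 4 scored 3100 in replicates 1 and 2 and were not in the list of replicate 3: chr19:51381660-51382741, chr20:39658071-39658681, chr16:2881797-2882285 and chr20:34319580-34320057, with widths of 1082, 611, 489 and 478 bases. The region chr7:102113548-102114131 scored 3109 and 1967 in replicates 2 and 3. Ties at 3100 leave the order among the first of these undecided.

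Of the 31 members above the 80th percentile, 11 had a peak in all 3 oeALKBH5 lists, 4.38% of the 251 such members, and 20 had a peak in 2 lists, 1.62% of 1235. The highest with all 3 lists was chr1:93307323-93307481 (159 bases, plus strand), which scored 3100 in every list with the same borders, 757 bases from chr1:93306108-93306565, a region of the same score held by NC replicate 3 and the 3 oeALKBH5 lists. It was followed by chr19:45910591-45912983 (2393 bases, minus strand), with 3100, 3100 and 2709 in replicates 1, 2 and 3 and the nearest NC peak of its strand 3708 bases away, and an overlap of 1593 bases with an NC peak on the plus strand. The next were chr17:40139837-40139928 (92 bases), with 3100, 1417 and 2050, and chr16:72135399-72135511 (113 bases), with 2438, 2181 and 1989. Last of the 5 was chr20:25843696-25843837 (142 bases), with 1156, 1336 and 2112. A peak of NC replicate 1 that scored 3100 lay 1482 bases from it.

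Several of these had a strong NC peak close by. Of the 31 members above the 80th percentile, 9 lay within 1 kb of an NC peak on the same strand, and for 4 of those 9 no list held both the member and the neighbouring region. At chr1:35653574-35653691, held by oeALKBH5 replicates 2 and 3, the neighbour chr1:35652602-35652723 scored 3100 in NC replicates 2 and 3 and oeALKBH5 replicate 1. At chr1:43148658-43149036, the neighbour 255 bases away, chr1:43148066-43148402, scored 3100 in NC replicate 1 and oeALKBH5 replicate 1. For chr20:39658071-39658681, held by oeALKBH5 replicates 1 and 2, the neighbour chr20:39657462-39657740 scored 3100 in the other 4 lists, so that each of the 6 lists held 1 of the pair. And chr16:72135399-72135511, held by the 3 oeALKBH5 lists, lay 902 bases from chr16:72134335-72134496, held by NC replicates 2 and 3 with scores of 2442 and 3096.

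The neighbour was held together with the member elsewhere. Near chr17:40139837-40139928, the 3 oeALKBH5 lists and NC replicates 2 and 3 all held chr17:40140750-40140914, 821 bases away. Over all 114 members with an NC peak within 1 kb, no list held both regions for 43 (37.7%). For NC-only regions with an oeALKBH5 peak within 1 kb, it was 40 of 61 (65.6%). Over all 1681 pairs of neighbouring same-strand regions within 1 kb, the share was 36.8%. These shares are not like for like. By the rule only oeALKBH5 lists can hold a member and only NC lists an NC-only region, while pairs in general can be held by any list. The part of such neighbours in making a region oeALKBH5-only was not tested. Joining peaks within 1 kb, an alternative chosen after seeing the data, gave 1476 regions under the rule, 22 of them above the 80th percentile. In it the 114 members with an NC peak within 1 kb joined that peak and no longer met the rule. The 1476 therefore include regions newly formed by the joining, and the small net change does not count the members lost.

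The widest members were of lower rank, with 1 exception. The widest, chr13:23903618-23911278 (7661 bases, minus strand), had scores of 234 and 175 in oeALKBH5 replicates 1 and 3, where its peaks were 7361 and 3198 bases wide. At chr7:92729767-92735365 (5599 bases), replicate 1 held 4 peaks and the others 1 each, with highest scores of 374, 112 and 68.0, and the nearest NC peak lay 266762 bases away. The members chr16:2158253-2161865 (3613 bases) and chr12:50035740-50038666 (2927 bases), both in all 3 lists, had mean percentiles of 41.7 and 26.4. The exception was chr1:207193367-207196825 (3459 bases, minus strand), with scores of 3100, 760 and 1034 in replicates 1, 2 and 3 and a mean percentile of 88.9. Each list held it as 1 peak of 2899, 2910 and 3459 bases, and the nearest NC peak lay 9098 bases away.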

How the data were processed

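Peak lists of 6 IP libraries and gene values of 6 input libraries were used, grouped by the labels' titles. Per the submitters' processing notes, the build was hg19 and the tools were Cufflinks, Cuffdiff, HISAT2 (2.0.4) and cutadapt (1.9.3), with no role or order. Peak scores are the authors' values as deposited, and the peak names start with MACS. The caller's version, options and control, and how peaks were given a strand or filtered, are not given in the sources used here. Expression is FPKM as deposited by the authors, a unit taken from those tools and from the values, since the table names none.

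Regions were joined and counted in Python 3.11.15 with pandas 2.3.3, numpy 2.4.6 and scipy 1.17.1, and figures drawn with matplotlib 3.10.9. The joining was tested on simulated lists. A percentile is the rank of a score within its list, with ties averaged, and a region takes the highest peak of a list. Coordinates count from 1, and a distance is the number of bases between 2 intervals. Intervals on shares are exact binomial ones at 95% and cover counting error only. FPKM were tested as log2(FPKM + 1).

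Named regions are the 10 with the highest mean percentile over the lists that hold them, the 5 highest in all 3 lists, the 5 widest and the 3 stretches of 100 kb with most members. The members and lists were chosen with earlier results of these data known. Genes, exons and sequences of the regions, and their expression, were not analysed here, since no annotation or genome of hg19 was used. Alternatives were other overlaps, strand ignored, stricter scores, equal list lengths, wider peaks, all 3 lists required and 1 library left out.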

Additional observations from a re-analysis of the deposited data

How the results depend on the processing

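The number of oeALKBH5-only regions stayed within 1.5 times 1486 under other joining overlaps, with strand ignored and with peaks under 50 bases left out. It was 877 with scores of at least 100, 800 in lists of 11478 peaks, 251 with all 3 lists required and, in an alternative chosen after seeing the data that cut only oeALKBH5 replicates 1 and 3 to 11902 peaks, 823. NC-only regions, 589, came to 431 with scores of at least 100, 123 with 3 lists required and 911 in that last alternative. The lowest scores left in oeALKBH5 replicates 1 and 3 were 94.3 and 76.8 at 11478 peaks and 87.9 and 72.2 at 11902. At 11478 peaks they were 54.8, 50.8 and 50.9 in NC replicates 1, 2 and 3 and 50 in oeALKBH5 replicate 2. Leaving out 1 library gave 509 to 2043 oeALKBH5-only and 263 to 1198 NC-only regions.

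The median width of 270 bases went to 354 with scores of at least 100, 345 at equal length, 298.5 without narrow peaks and 437 with 3 lists required, and ran from 271 to 342 with 1 library left out. The median percentile of member peaks, 28.8, was 50.6 with scores of at least 100 and 41.6 at equal length, where the lowest peaks are gone by construction. The share with an NC peak within 1 kb, 7.67%, was 6.04% with scores of at least 100 and 6.42 to 10.02% with 1 library left out. The held-out lead of NC lists over oeALKBH5 replicate 1 among regions chosen as NC-only turned from -4.17 to -0.17 points as deposited to 9.10 to 12.3 points at equal length. Of 119 values under alternatives, 28 moved by more than 1.5 times (counts), the spread between the 3 oeALKBH5 lists (medians) or the binomial interval (shares).

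Paired by replicate number (replicate block), exact sign-flip permutation gave p = 0.5 for the 2503 more peaks per oeALKBH5 list and p = 0.25 for ALKBH5, a difference of 0.30. No sign of pairing by number was seen in the inputs, which does not show that same-numbered samples were handled apart. This was judged on the deviations of each input from its group mean, not on the expression values themselves. Over 12757 genes, these deviations correlated at -0.02, -0.02 and 0.03 between same-numbered inputs. Between differently numbered inputs they correlated at -0.03 to 0.05. The planned gene expression and motif analyses of the regions were not run.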
